A study of Mus musculus with 71 samples.

Results

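The 40 genes described here are cell cycle genes, chosen by name: 14 whose products act in DNA replication (S-phase members) and 26 whose products act in G2 phase and mitosis (G2/M members). They are 40 of the 24475 gene identifiers of the bulk tables, and all 40 were also found in the single-cell tables. Their levels were followed across 71 samples of C57BL/6 mice that were either wild-type (WT) or Btnl2-/- (Btnl2-KO), a germline null allele that carries LacZ in the gene of the butyrophilin-like protein Btnl2. γδ IELs, the T cells with a γδ receptor that lie between gut epithelial cells, were sorted as CD45+TCRβ-TCRγδ+ cells, and each bulk library was a pool of a pair of mice, aged 10 weeks by the sample labels. There were 4 WT and 3 Btnl2-KO libraries of the duodenum, 4 and 4 of the jejunum, and 4 and 3 of the ileum. The intestinal epithelial cell (IEC) fraction, the top layer of a Percoll gradient and not sorted, came from mice aged 7 weeks, with 3 WT and 2 Btnl2-KO libraries of the duodenum, 3 and 3 of the jejunum, and 2 and 3 of the ileum. Whole small intestine was sequenced from 7 WT and 7 Btnl2-KO mice and whole colon from 6 and 7, with the tag YNG in the titles and no age in weeks. Single γδ IELs, pooled over mice aged 8 to 10 weeks, gave 1 library for each of the 3 segments and each genotype.

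S-phase members cover the replicative helicase (Mcm2 to Mcm7 and its partner Gins2), the sliding clamp Pcna, the makers of DNA precursors (Rrm1 and Rrm2, the subunits of ribonucleotide reductase, thymidylate synthase Tyms and thymidine kinase Tk1), and the E-type cyclins Ccne1 and Ccne2 that open S phase. G2/M members cover the mitotic kinase Cdk1 with its cyclins, the kinases Plk1, Aurka and Aurkb, the spindle checkpoint, the kinesins and kinetochore proteins that move chromosomes, the chromosome coat protein Mki67 and the topoisomerase Top2a. In the gut, dividing cells sit mainly in the crypts, below the villi of the small intestine and in the mucosa of the colon. γδ IELs are long-lived resident cytolytic cells, of which few divide at rest.

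Total counts ran from 15397757 to 38258472 per IEC library, from 13444958 to 30029485 per γδ IEL library and from 13619309 to 21708721 per tissue library. Levels are given as CPM, counts scaled to the total of their library, which are not divided by gene length, so each gene is compared between samples and not with other genes. The sorted fractions matched their labels in part: the mean of γδ IEL identity genes, as log2(CPM + 1), was 10.8 to 11.6 in γδ IEL libraries and 1.32 to 4.07 in IEC libraries, while 12 pan-epithelial genes averaged 9.26 to 10.0 in IECs and still 4.01 to 8.79 in sorted γδ IELs. In 3 Btnl2-KO libraries of IECs a marker went against the label: the library labelled duodenal 1003459 held the ileal bile acid protein Fabp6, the library labelled ileal 1003481 held almost none, and the library labelled jejunal 1003474 held Btnl2 near the WT level. Btnl2 itself was lower in the Btnl2-KO group in each of the 8 comparisons, by log2 fold changes from -2.74 in jejunal IECs to -9.73 in duodenal γδ IELs.

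The members share promoter sequence that their choice did not use. Of the 40, 32 had an entry among the RefSeq promoters of the mouse build GRCm38.p6, and the 250 bases before each start site were searched on both strands. The letters CCAAT, read by the factor NF-Y, were found in 18 of 21 G2/M members (85.7%) and in 8 of 11 S-phase members (72.7%), against 34.5% of 27025 promoters of the same length. The cell cycle homology region (CHR, here TTTGAA or TTCGAA), bound by the DREAM and MuvB complexes in G2/M genes, was found in 38.1% of G2/M members, 9.09% of S-phase members and 17.4% of all promoters. Each of the 8 G2/M promoters with a CHR match also held CCAAT, a pair found in 6.21% of all promoters. An E2F site (TTTGGCGC, TTTCCCGC, TTTGCCGC or TTTCGCGC) was found in 2 of 11 S-phase members (18.2%), 1 of 21 G2/M members (4.76%) and 1.91% of all promoters. Matches can share bases, as those of E2F letters on opposite strands in Mcm5 do, and a match is a description and not a bound site.

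The last 160 bases before the start site are printed for 3 G2/M members that hold both CCAAT and a CHR match, as 8 of 21 do. They are also printed for the 2 S-phase members that hold E2F matches. Other G2/M members named below differ: Birc5 had no match, and Cdca3, Cdca8 and Cenpf had CCAAT and no CHR match. They lie at chr10:69352913-69353072, minus strand (Cdk1), chr4:118437344-118437503, minus strand (Cdc20), chr2:164769769-164769928, plus strand (Ube2c), chr8:75109349-75109508, plus strand (Mcm5) and chr1:128359706-128359865, minus strand (Mcm6), and capitals mark the motif letters on either strand.
Cdk1: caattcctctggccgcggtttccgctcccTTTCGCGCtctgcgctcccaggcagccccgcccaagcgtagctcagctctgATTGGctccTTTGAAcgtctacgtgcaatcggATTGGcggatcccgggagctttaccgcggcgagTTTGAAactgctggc
Cdc20: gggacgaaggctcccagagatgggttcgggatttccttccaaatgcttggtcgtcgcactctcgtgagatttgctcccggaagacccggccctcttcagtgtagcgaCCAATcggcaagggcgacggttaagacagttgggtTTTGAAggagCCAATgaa
Ube2c: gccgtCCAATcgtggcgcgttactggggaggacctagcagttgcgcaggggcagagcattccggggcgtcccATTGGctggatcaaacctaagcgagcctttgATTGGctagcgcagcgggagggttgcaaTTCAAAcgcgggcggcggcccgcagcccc
Mcm5: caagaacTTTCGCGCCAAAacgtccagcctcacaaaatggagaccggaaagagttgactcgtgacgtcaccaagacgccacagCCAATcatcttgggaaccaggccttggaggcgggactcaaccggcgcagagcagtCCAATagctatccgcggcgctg
Mcm6: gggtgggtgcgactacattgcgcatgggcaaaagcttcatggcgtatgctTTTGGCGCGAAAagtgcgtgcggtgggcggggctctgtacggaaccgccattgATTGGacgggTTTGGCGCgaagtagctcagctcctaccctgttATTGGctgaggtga
Cdk1, Cdc20 and Ube2c each carried CCAAT, as written or as its complement ATTGG, with a CHR match (TTTGAA, or TTCAAA on the other strand), and Cdk1 also E2F letters. Mcm5 and Mcm6 carried CCAAT with E2F letters and no CHR match.

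Across fractions, most members were higher in IECs than in γδ IELs, and the G2/M members differed more than the S-phase members. Mki67, the chromosome coat protein used to mark dividing cells, was 592.3 ± 299.0 CPM (SD, n = 8) in WT IECs, 41.7 ± 14.0 (n = 12) in WT γδ IELs, 259.6 ± 94.2 (n = 7) in small intestine and 179.2 ± 53 (n = 6) in colon. Top2a, which untangles replicated DNA, was 518.7 ± 179.0 CPM in IECs, 62.7 ± 20.9 in γδ IELs, 216.2 ± 77.8 in small intestine and 109.2 ± 29.9 in colon. Mki67 in IECs ran from 37.2 to 1003 CPM and overlapped the γδ IEL range of 22.9 to 66.5 through a lone library, whereas Top2a in IECs, from 165.4 to 710.3 CPM, lay wholly above its γδ IEL range of 32.4 to 94.3. γδ IELs, IECs and whole tissue come from separate preparations, and the labels give different ages for γδ IELs and IECs and no age in weeks for tissue. Fraction and preparation therefore cannot be told apart, and no test was run between γδ IELs, IECs and tissue. In bulk samples fewer cells of a type cannot be told apart from less RNA per cell.

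On the log2 scale the difference of IECs from γδ IELs in mean level ranged over the members from -0.66 to 3.47, with a median of 0.83, and 36 of 40 were higher in IECs. The median was 1.54 for G2/M members and 0.40 for S-phase members, while the median over all genes compared was -0.43, so that relative to all genes the members stood 1.26 higher. Every WT IEC library lay above every WT γδ IEL library for 9 of the 40 (Rrm1, Ccne2, Top2a, Plk1, Bub1, Bub1b, Kif11, Kif20a and Tpx2), against 17.1% of all genes. That count depended on scaling. It was 24 under TMM and 25 under RLE factors over all bulk libraries, against 28.3% of all genes under either. Mki67 (3.47), Top2a (3.0) and the spindle motor Kif11 (2.55) had the greatest differences, followed by the checkpoint kinase Bub1b (2.40), the cytokinesis kinesin Kif20a (2.27) and Plk1 (2.10). At the other end, cyclin E1 (Ccne1) was 9.3 ± 1.98 CPM in IECs and 15.4 ± 3.26 in γδ IELs, and Gins2, the kinetochore protein Spc24 and Tyms also had lower means in IECs, by 0.53, 0.52 and 0.09 on the log2 scale. Mcm4 (0.02) and Pcna (0.04) were at nearly equal CPM in both fractions. Cyclin E2 (Ccne2) went the other way from Ccne1, at 13.7 ± 2.73 CPM in IECs and 3.12 ± 1.74 in γδ IELs.

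**Figure D1:**
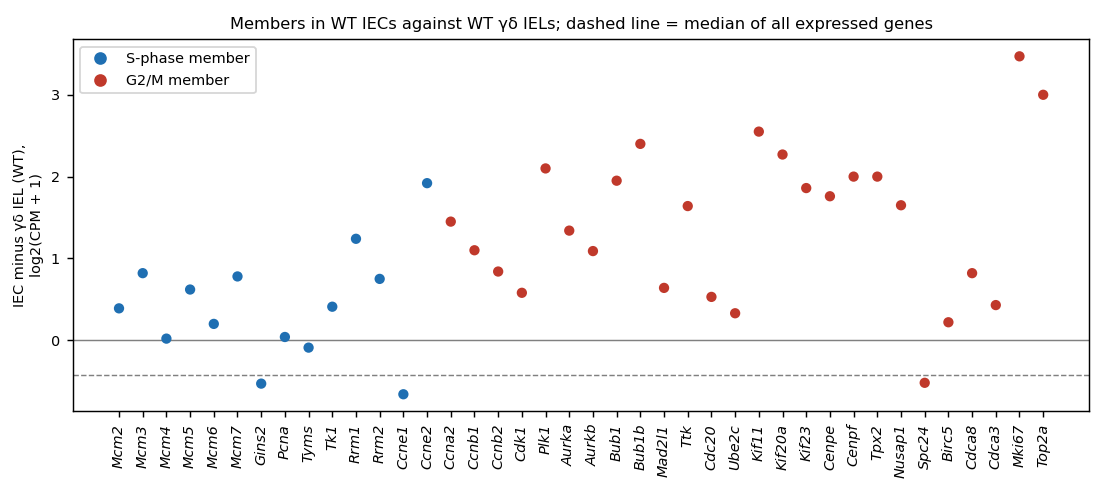
Difference of mean level between WT IEC and WT γδ IEL libraries for each of the 40 members, as log2 of CPM + 1, with S-phase members in blue, G2/M members in red and the median of all expressed genes as a dashed line. Mki67 is farthest above 0 at 3.47 and Ccne1 farthest below at -0.66.

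Set against whole small intestine, IECs had higher mean levels for 39 of 40 members, with a median log2 difference of 0.71 (S-phase 0.79, G2/M 0.65) while the median of all genes was -0.62. Every IEC library lay above every small intestine library for 7 members, the helicase subunits Mcm2, Mcm3, Mcm5 and Mcm6 with Rrm1, Plk1 and Bub1b, against 1.19% of all genes. Under TMM factors these were 33 members (21.6% of all genes), under RLE factors 25 (12.8%) and in Btnl2-KO libraries 30 (5.61%). Spc24 was the lone member with a lower mean in IECs, 14.0 ± 2.17 against 15.6 ± 3.63 CPM. Whole small intestine differed from γδ IELs by a median of 0.14, which became -0.05 when TMM factors were taken over all 65 bulk libraries, and its phases parted: 0.90 for G2/M members and -0.66 for S-phase members, with 0.35 for all genes. Mki67, Top2a and the cytokinesis kinesin Kif23 were above every γδ IEL library in every small intestine library, against 35.9% of all genes, and Pcna was below every one, at 67.5 to 130.9 CPM against 134.2 to 206.8.

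**Figure D2:**
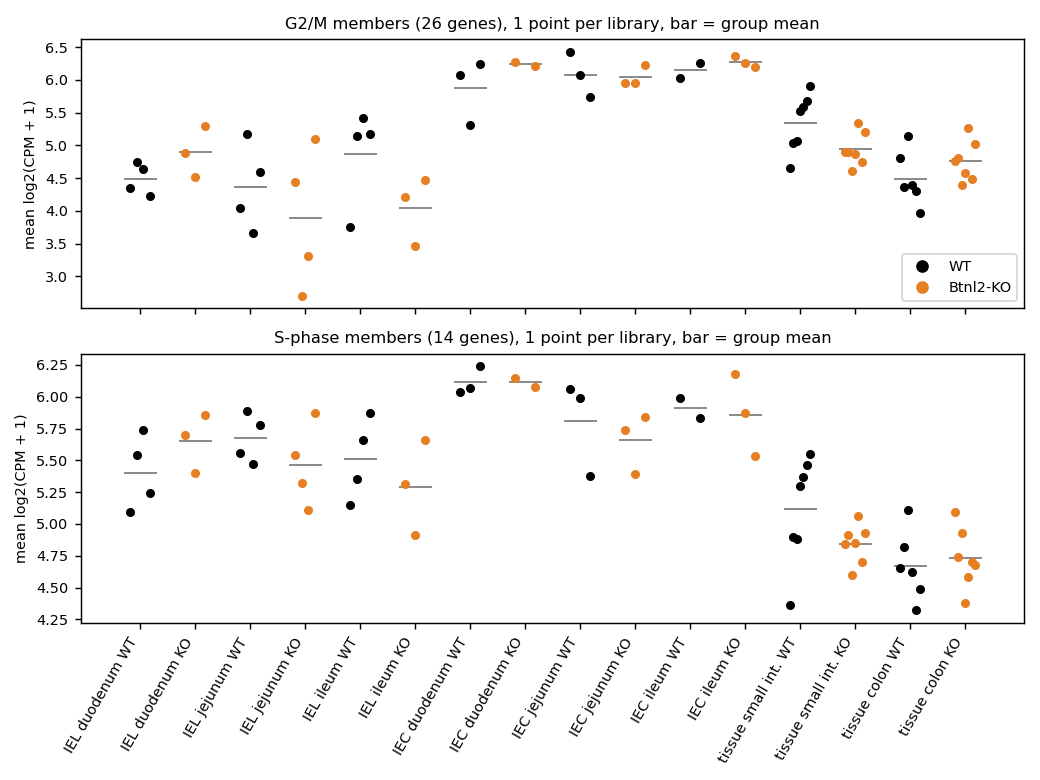
Mean log2(CPM + 1) of the 26 G2/M and of the 14 S-phase members in each of the 65 bulk libraries, by fraction, segment and genotype, with a point for each library and a bar at the group mean. γδ IEL libraries spread widely: G2/M members ran from 2.7 to 5.41 there, and the WT ileal library at 3.75 lies apart from the other 3 at 5.14 to 5.41.

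A duodenal WT library of IECs, 1003466, stood apart in some members and not in others. Mki67 was 37.2 CPM there, against 512.8 and 665.7 in the other two WT duodenal libraries, the kinetochore protein Cenpf was 7.09 against 58.1 and 91.5, and Top2a was 165.4 against 502.3 and 710.3. Cdk1 was 70.5 against 58.9 and 80.8 CPM, and Ccnb1, its cyclin partner, was 95.0 against 81.7 and 98.5. The members named as low have long transcripts (Mki67 10061 bases, Cenpf 11130 and Top2a 5221 in the GENCODE annotation). Cdk1 has 4375 bases and Ccnb1 2489, and Mad2l1, with 7557, ran from 37.6 to 71.5 CPM over all WT IEC libraries. Relative to each gene's median over IEC libraries, 9 members of at least 4000 bases had a median of -1.62 in this library. The 29 shorter members had a median of -0.06. In the same library all genes with transcripts of at least 6000 bases were lower than those under 2000 bases by 1.18 on the log2 scale relative to the other libraries, against -0.35 to 0.35 in the other 15 IEC libraries. Its part in the level of each member was not tested, and without it the median difference of IECs from γδ IELs was 0.86, with 16 members above every γδ IEL library.

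Between segments of WT IECs no member passed the test, which called a gene at an adjusted p under 0.05 by edgeR's quasi-likelihood test and a change of over 1.5-fold. Of all genes, 0.32% were called for jejunum against duodenum (0.168% higher, 0.152% lower), 4.42% for ileum against duodenum (2.78% higher, 1.64% lower) and 1.13% for ileum against jejunum (0.769% higher, 0.357% lower). The members' median log2 fold changes were 0.01, -0.04 and 0.02, none of the 40 had an unadjusted p under 0.05 in any of the 3, and DESeq2 and limma-voom with quality weights also called 0. In the jejunum Mki67 was 1003.0, 558.8 and 728.7 CPM and in the ileum 374.9 and 857.0, ranges that overlap each other and the duodenum.

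In WT γδ IELs the jejunum differed from both neighbours, and the members did not move as a block. The helicase subunit Mcm4 was higher in the jejunum than in either neighbour, and Mki67, Spc24, Gins2 and Tyms were lower there. Mcm4, a helicase subunit, was 153.9, 133.8, 135.9 and 137.7 CPM in the 4 jejunal libraries, 54.8, 65.9, 103.9 and 54.8 in the duodenum, and 70.4, 54.2, 65.8 and 82.9 in the ileum. All 4 jejunal values exceeded all others, by log2 fold changes of 0.86 (SE 0.16, adjusted p = 0.00475) over the duodenum and, in the other direction, -0.85 (SE 0.12, adjusted p = 0.00311) for the ileum against the jejunum. Mcm2, Mcm3 and Mcm6 likewise did not overlap between the jejunum and either neighbour. Their changes were under 1.5-fold or, for Mcm3, did not pass the adjusted threshold (adjusted p = 0.186 and 0.184 by edgeR). The share of all genes without overlap was not counted. Of all genes, 23.3% were called between jejunum and duodenum and 21.7% between ileum and jejunum. Mki67 was 25.0, 38.6, 22.9 and 31.3 CPM in the jejunum, 43.2, 39.4, 34.5 and 52.8 in the duodenum, and 33, 63.2, 66.5 and 49.5 in the ileum. The jejunum lay low and overlapped both neighbours by its highest library.

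For jejunum against duodenum 6 members passed, 2 of them higher (Mcm4 and Rrm1) and 4 lower (Spc24, Gins2, Mki67 and Tyms), where 10.5% of all genes were higher and 12.7% lower, 23.3% in all. The share of members called was below that of all genes. Rrm1, the large subunit of ribonucleotide reductase, had a log2 fold change of 0.60 (adjusted p = 0.0386), Spc24, part of the kinetochore's link to microtubules, -1.17 (SE 0.34, adjusted p = 0.0231), and Mki67 -0.71 (SE 0.20, adjusted p = 0.0206). The members' median was 0.02, and of the genes that did not pass, Top2a was at -0.38, Cdk1 at -0.65, Ccnb1 at 0.06, Mcm5 at 0.27, Pcna at -0.23, Rrm2 at 0.35 and Ccne1 at -0.04. Of other replication genes 3 of 22 were lower (Gins1, Lig1 and Gmnn), and of other mitotic genes 1 of 30 was higher and 4 were lower. The count rested on single libraries: it was 1 without jejunal library 1105595 (18.4% of all genes called), 13 without jejunal library 1105596 (25.5%) and 9 without duodenal library 1105581 (30.5%). It was 2 or 3 without any of the other five (15.8 to 20.8%). Mcm4 was called in each of the 8 fits that left a library out.

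For ileum against jejunum 9 members passed, 8 higher and 1 lower, with 10.8% of all genes higher and 10.9% lower, 21.7% in all. The share of members called was close to that of all genes. Cenpf had the greatest change, 1.51 (SE 0.46, adjusted p = 0.0288), from 6.04, 16.2, 6.05 and 11.6 CPM in the jejunum to 8.57, 34.3, 36.3 and 18.9 in the ileum. Birc5, the survivin subunit of the chromosomal passenger complex, rose by 1.43 (adjusted p = 0.0367), Spc24 by 1.40 (adjusted p = 0.0351), Cdk1 by 1.30 (SE 0.46, adjusted p = 0.0494), the kinetochore kinesin Cenpe by 1.26 (adjusted p = 0.0277) and Mki67 by 1.06 (SE 0.23, adjusted p = 0.00814). Gins2 and Tyms rose by 0.91 and 0.90. Cdk1 was 20.2, 77.6, 91.7 and 75.2 CPM in the ileum and 21.2, 53.4, 15.9 and 33.6 in the jejunum, so that 3 ileal libraries were above the jejunum and the first, 1105587, was within it. Among other lists, 6 of 22 other replication genes and 6 of 30 other mitotic genes rose and none fell, and the G1 cyclin Ccnd1 rose by 1.73. Without library 1105587 18 members were called (26.4% of all genes), without 1105596 15 (25.3%), without 1105590 6 (23.9%), and without any of the other five 2, Mcm4 and Mki67 (14.6 to 16.9%).

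Ileum against duodenum gave 0 called members by edgeR, against 2.16% of all genes (1.15% higher, 1.01% lower), although all 40 log2 fold changes were above 0 (median 0.45, 4 with an unadjusted p under 0.05, lowest adjusted p 0.225). DESeq2 also called 0 and limma-voom with quality weights 3, where 4.34% of all genes were called. Without ileal library 1105587 edgeR called 16, all higher, where 4.86% of all genes were called.

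Epithelial RNA and the signal from long transcripts also differed between the segments. Between the jejunum and the ileum 5 of 12 pan-epithelial genes rose (Krt18 by 2.06, Tspan8 by 1.86) and 1 fell, and all 4 Paneth cell genes rose. The 12 genes' mean log2(CPM + 1) was 7.51, 8.79, 8.72 and 8.48 in the 4 ileal libraries, 7.24, 8.58, 6.95 and 8.01 in the jejunal and 8.04, 8.08, 7.87 and 7.44 in the duodenal ones. In 6 of 6 γδ IEL groups the library with the lowest pan-epithelial mean also had the lowest mean over the members, and in 3 of 6 the highest matched too. With the pan-epithelial mean as a covariate the ileum against jejunum kept 4 higher (Cenpf 0.66, Mki67 0.65, Spc24 0.61 and Cenpe 0.60) and 1 lower member (Mcm4, -0.77), with a median of -0.08 and 19.1% of all genes called. For jejunum against duodenum the same covariate raised the count from 6 to 10, 3 higher and 7 lower, with 25.3% of all genes called. For ileum against duodenum it moved the median from 0.45 to -0.05, with 13 members above 0. Jejunal WT libraries also held more signal from long than from short transcripts (0.35, 0.12, 0.42 and 0.39 on the log2 scale) than the duodenal (-0.19 to -0.01) or ileal ones (-0.21 to -0.06). Relative to each gene's median over γδ IEL libraries, 9 members of at least 4000 bases had medians of -0.62, 0.38, -0.76 and -0.07 there. For 27 shorter members these were -0.43, 0.55, -0.74 and 0.20 in the same jejunal libraries. The part of transcript length in the members' values was not tested.

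**Figure D3:**
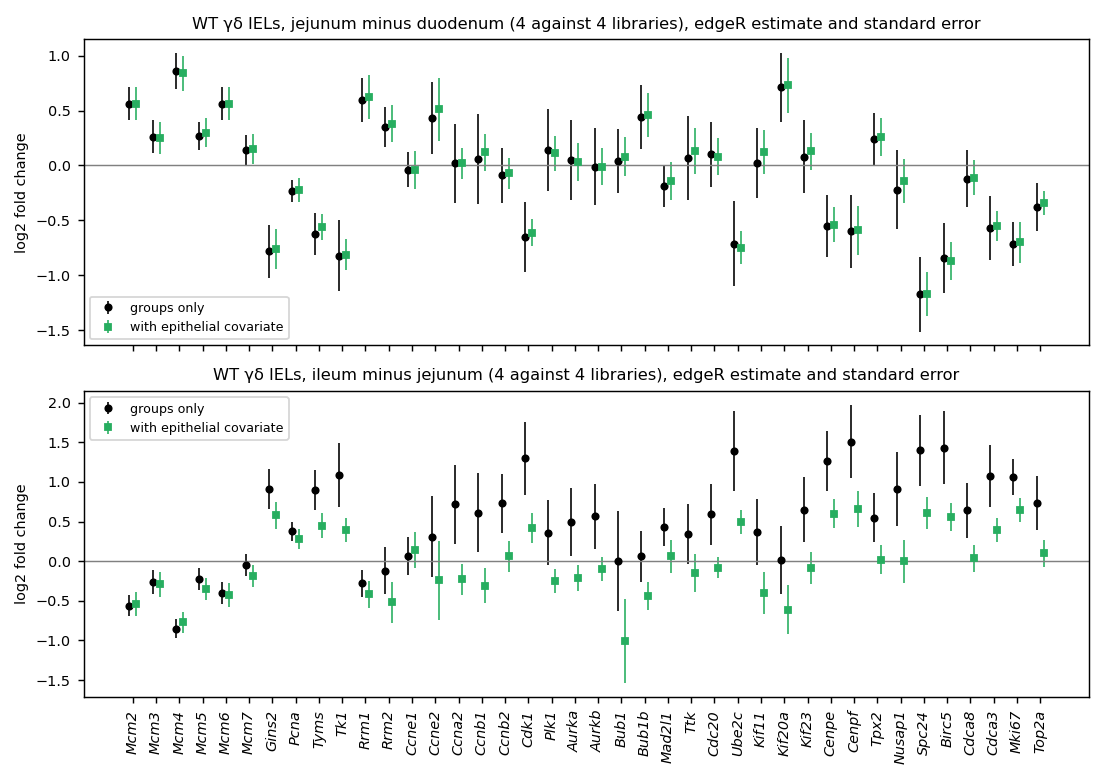
Log2 fold change of each member between segments of WT γδ IELs (upper panel jejunum minus duodenum, lower panel ileum minus jejunum, 4 against 4 libraries), with bars of 1 standard error, for the groups alone (black circles) and with the pan-epithelial mean as a covariate (green squares). In the lower panel the covariate moves Cenpf from 1.51 to 0.66 and Mcm4 only from -0.85 to -0.77.

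In the Btnl2-KO libraries the segments of γδ IELs gave 0 called members for jejunum against duodenum and for ileum against jejunum, where 0% of all genes were called by edgeR (lowest adjusted p of a member 0.463 and 1), the tool run on this contrast. Ileum against duodenum also gave 0 (median -0.60, lowest adjusted p 0.0809), where 0.505% of all genes were called. There Mcm4 was 80.3, 73.1 and 75.6 CPM in duodenal, 96.9, 135.4, 61.8 and 126.4 in jejunal, and 85.7, 48.0 and 140.3 in ileal libraries, with wide overlap. Jejunal library 1105592 had a G2/M mean of 2.7 with a pan-epithelial mean of 4.01, both the lowest of all γδ IEL libraries, and an S-phase mean of 5.32 within the range of its group (5.11 to 5.87).

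In whole tissue of WT mice most members were called lower in the colon than in the small intestine. In Btnl2-KO tissue 1 was called lower, though 35 of the 40 changes were below 0 there. In WT mice 31 of 40 members were lower and 0 higher, 25 of 26 G2/M members and 6 of 14 S-phase members, where 15.6% of all genes were lower and 12% higher, 27.6% in all. The median log2 fold change was -0.94 for G2/M members, -0.57 for S-phase members and -0.02 for all genes. Ube2c, the enzyme that tags cyclin B for destruction, was 15.7 to 36.4 CPM in the colon (median 19.9, n = 6) and 40.2 to 84.6 in the small intestine (median 51.4, n = 7), with no overlap, a log2 fold change of -1.42 (SE 0.23, adjusted p = 0.000154 by edgeR). Cdca8, borealin of the passenger complex, was 10 to 19.2 CPM (median 12.3) in the colon and 22.2 to 40.6 (median 30.8) in the small intestine, also without overlap, and fell by 1.16 on the log2 scale (SE 0.17, adjusted p = 5.49e-05). The other 38 overlapped between the tissues, and the share of all genes without overlap was not counted.

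By role, all 7 mitotic cyclins and kinases were lower (median -1.06), as were all 6 checkpoint and anaphase-promoting genes (-0.85), all 8 kinesin, spindle and kinetochore genes (-0.82) and all 3 of Birc5, Cdca8 and Cdca3 (-1.17). Cdca3, which takes part in mitotic entry, changed by -1.26, Birc5 by -1.17 and Cdc20, the activator of the anaphase-promoting complex, by -1.16. Top2a was at -1.03 (SE 0.22, adjusted p = 0.00167), Ccnb1 at -0.95 (adjusted p = 0.00351) and Cdk1 at -0.86 (adjusted p = 0.00562). Mki67 was the lone G2/M member not called: it was 111.5 to 260.1 CPM in the colon (median 170.7) and 113.5 to 376.6 in the small intestine (median 277.3), a log2 fold change of -0.58 (adjusted p = 0.0599).

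Among S-phase members Rrm2 (-0.89, adjusted p = 0.00469), Tk1 (-0.84), Ccne1 (-0.78, adjusted p = 0.0167), Mcm5 (-0.71, adjusted p = 0.00548), Mcm4 (-0.64) and Mcm7 (-0.60) were called. Mcm2, Mcm3, Mcm6, Rrm1 and Pcna (-0.42, adjusted p = 0.00755) passed the adjusted p and were under 1.5-fold, and Ccne2 (-0.34, adjusted p = 0.18) and Gins2 (-0.36, adjusted p = 0.131) did not pass. Tyms was 42.9 ± 4.44 CPM in the colon and 40.7 ± 9.34 in the small intestine (0.02, adjusted p = 0.899). Of other mitotic genes 24 of 30 were lower and 0 higher, and of other replication genes 12 of 22 were lower, led by Mcm10 and Gins1 at -1.28, and 1, Orc1, was higher at 0.99. Of 13 cell cycle transcription factors 5 were lower (Mybl2 -1.12, E2f2, E2f8, Foxm1 -0.94 and E2f7), of 7 G1 cyclins and kinases 1 (Ccnd1, -0.94), and of 12 cell cycle inhibitors tested 2 were higher (Btg1 and Cdkn1c) and 2 lower (Cdkn2b and Cdkn2c).

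Some stem cell genes moved with the members. Of 8 crypt base genes 4 were lower in the colon (Olfm4 -12.44, Axin2 -1.29, Lgr5 -1.10 and Smoc2 -0.86) and Sox9 was higher (0.69). The mean log2(CPM + 1) of the 8, which includes the large change of Olfm4, was 4.45 to 4.61 in the colon and 5.19 to 6.36 in the small intestine. The pan-epithelial mean was 9.65 to 9.76 and 9.53 to 10.2. Markers of other cells fell too: all 9 γδ IEL identity genes tested (median -3.35), all 7 villus enterocyte genes (-8.89), all 4 Paneth cell genes (-7.49), 4 of 5 myeloid genes and 2 of 4 plasma cell genes. Of 5 B cell and 5 smooth muscle genes 0 were called. The part of cell makeup in the members' values was not tested. Leaving out each library in turn gave 26 to 36 called members, all lower, where 26.5 to 27.9% of all genes were called. In Btnl2-KO tissue the same contrast called 1 member, Ccne2 at -0.67, where 15.7% of all genes were lower (30.2% in all), and the median was -0.27. The difference between the genotypes' contrasts was tested as an interaction: 0 members were called by edgeR, DESeq2 or limma-voom, against 0.0193% of all genes (0.0129% higher, 0.00644% lower), with a median of 0.60, 39 of 40 above 0 and 24 with an unadjusted p under 0.05, which 12.9% of all genes had (lowest adjusted p 0.307, Ube2c at 1.05, SE 0.32).

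**Figure D4:**
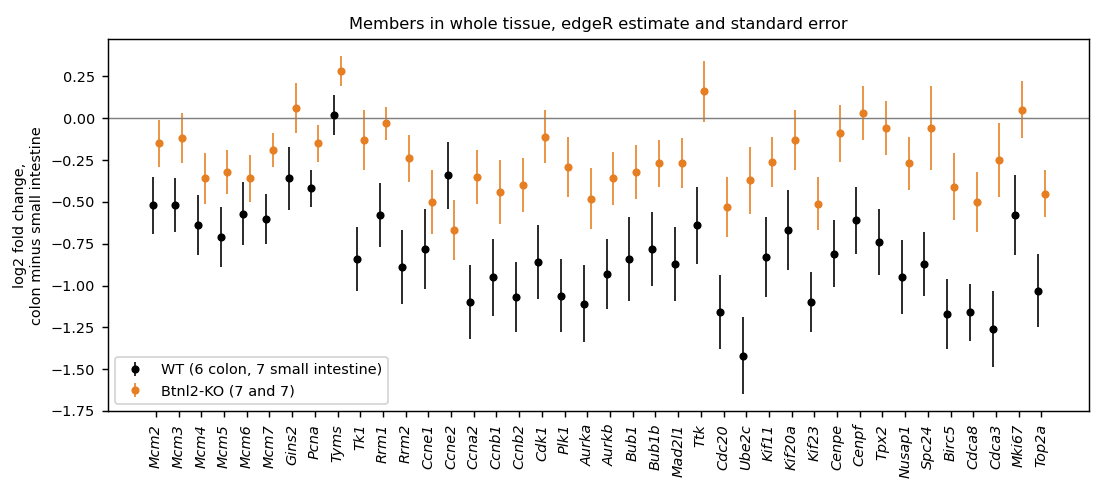
Log2 fold change of colon against small intestine for each member in WT and in Btnl2-KO tissue, with bars of 1 standard error (black WT, orange Btnl2-KO). WT changes run from -1.42 (Ube2c) to 0.02 (Tyms), and the Btnl2-KO median is -0.27.

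Between genotypes no member passed the test in any of the 8 comparisons of Btnl2-KO with WT. In γδ IELs the share of all genes called was 0.00789% (duodenum), 0.00794% (jejunum) and 0% (ileum). In IECs it was 0% for both duodenum and jejunum and 0.00774% for ileum. In tissue it was 0.0202% in the small intestine (0.0135% higher, 0.00673% lower) and 0.0269% in the colon (0.0134% each way). Beside these counts of 0 by edgeR, the members with an unadjusted p under 0.05 numbered 7, 0 and 14 in duodenal, jejunal and ileal γδ IELs, 0, 5 and 0 in the same segments of IECs, 11 in small intestine and 1 in colon. Of all genes, 2.07, 6.39, 8.79, 1.22, 8.4, 2.07, 23 and 4.14% had such a p, in the same order. DESeq2 and limma-voom with quality weights also called 0 members in 7 of the 8, the exception being ileal γδ IELs.

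The members' medians differed in sign between comparisons. In ileal γδ IELs the median log2 fold change was -0.75 (G2/M -0.91, S-phase -0.09) and 34 of 40 were below 0. Cdk1 was 31.1, 19.7 and 28.8 CPM in Btnl2-KO and 20.2, 77.6, 91.7 and 75.2 in WT, with a log2 fold change of -1.33 (SE 0.43, adjusted p = 0.451 by edgeR). Ube2c was 40.4, 13.3 and 34.3 CPM in Btnl2-KO and 29.4, 113.0, 114.0 and 80.3 in WT (-1.57, SE 0.47, adjusted p = 0.44), and Tk1 was 14.5, 12.1 and 15 against 14.5, 37.6, 42.3 and 33.8 (-1.21, SE 0.34, adjusted p = 0.436). The same WT library, 1105587, fell among the Btnl2-KO values for all 3 genes. Mki67 (-0.52, adjusted p = 0.629), Top2a (-0.62), Ccnb1 (-1.10), Pcna (-0.34), Rrm2 (-0.29), Ccne1 (0.01) and Mcm5 (0.18) were not called either. DESeq2 called 2 members, Ube2c (-1.59) and Tk1 (-1.23), limma-voom with quality weights 14, all lower, and edgeR without library 1105587 3 (Cdk1 -1.64, Tk1 -1.46 and Birc5 -1.42), where 1.75, 9.58 and 0.48% of all genes were called. Beside this, the pan-epithelial mean was 7.33, 5.62 and 7.96 in the Btnl2-KO libraries, against 7.51, 8.79, 8.72 and 8.48 in WT. With that mean as a covariate the members' median was -0.01, with 20 above and 20 below 0 and 0 called. Cdk1 was then at -0.59 (SE 0.55), Ube2c at -0.40, Tk1 at -0.80 and Mki67 at -0.77.

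In the duodenum of γδ IELs all 40 members were above 0 (median 0.31, lowest adjusted p 0.997) and in the jejunum 29 were below 0 (median -0.13, lowest adjusted p 0.583). With the pan-epithelial covariate the direction in the jejunum turned, to 31 above 0 and a median of 0.25 (Cdk1 0.72, Top2a 0.29, Mki67 0.23, lowest adjusted p 0.441). In the duodenum 37 were above 0 with a median of 0.15. No member was called in either. The difference of the genotype effect between ileum and duodenum had a median of -1.13, with 39 of 40 below 0, 9 with an unadjusted p under 0.05 (5.73% of all genes) and 0 called by edgeR (lowest adjusted p 0.716), DESeq2 or limma-voom, where 0% of all genes were called. In IECs the medians were 0.12, 0.05 and 0.05 in the 3 segments, and 0 members were called without the library 1003459, 1003474 or 1003481. In small intestine tissue 39 of 40 were below 0 (median -0.26), with the lowest adjusted p for the mitotic kinase Aurka, which was 11.9 to 19.5 CPM in Btnl2-KO (median 13.4) and 14.5 to 31.6 in WT (median 24.2; -0.44, SE 0.15, adjusted p = 0.138). In colon tissue 39 were above 0 (median 0.30, lowest adjusted p 0.972). Mki67 had log2 fold changes of -0.23 and 0.38 in the 2 tissues, Top2a -0.25 and 0.30, Cdk1 -0.38 and 0.35, Ccnb1 -0.24 and 0.25, Mcm5 -0.30 and 0.08, Pcna -0.09 and 0.16, Rrm2 -0.34 and 0.28, and Ccne1 -0.02 and 0.24.

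In single γδ IELs the S-phase members Mcm6, Pcna and Mcm4 were found in many cells. The remaining S-phase members and the G2/M members were found in fewer. The 6 libraries kept 3957 and 3936 cells (duodenum, WT and Btnl2-KO), 3601 and 3805 (jejunum), and 3724 and 4667 (ileum), with median UMI counts, that is distinct RNA molecules per cell, from 4868 to 5462. With 1 library per group there is no test, and the 95% Clopper-Pearson intervals given cover counting error only. The helicase gene Mcm6 had a UMI in 26.4 to 30.9% of cells over the 6 libraries, Pcna in 26.1 to 31%, Mcm4 in 21.8 to 26.4%, and Mcm7, Rrm1, Mcm2, Mcm5, Mcm3 and Tyms each in 6.38 to 13.8%. Ccne1 was found in 3.15 to 4.24%, Rrm2 in 2.25 to 3.3%, Gins2 in 2.08 to 2.77%, Tk1 in 0.861 to 1.58% and Ccne2 in 0.333 to 0.552%. As levels for RNA from other cells, the B cell gene Cd79a was found in 0.0508 to 0.107% of the same cells, the Paneth cell lysozyme Lyz1 in 0.178 to 1.03% and the enterocyte apolipoprotein Apoa1 in 0.643 to 2.85%. A UMI of any of 8 villus enterocyte genes was found in 4.18 to 11.8% of cells, a share over a list and not over a single gene. The 3 named genes therefore set no upper limit for such RNA. A member's share in the range of these genes is not by itself a sign of expression in γδ IELs, and a higher share is not shown to be free of such RNA.

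Of G2/M members Top2a was found in 7.28 to 9.45% of cells, the checkpoint gene Mad2l1 in 4.15 to 4.78% and Mki67 in 3.33 to 3.66%. Cdca8 reached 1.97 to 2.52%, Cdk1 1.47 to 2.01%, Aurkb 1.22 to 1.83% and Cdc20 1.14 to 1.47%. Birc5, Ube2c, Spc24, Tpx2, Aurka, Cenpe, Ccnb2, Cdca3, Kif11, Kif23 and Bub1b lay between 0.621 and 1.75%, and Cenpf, Plk1, Ccna2, Ccnb1, Kif20a and Nusap1 between 0.429 and 1.02%. The checkpoint kinases Bub1 and Ttk were rarest, at 0.222 to 0.356% and 0.0833 to 0.322%. Ttk differed most between libraries as a ratio, and its shares rest on few cells.

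The G2/M members were concentrated in few cells. Cells with UMIs of at least 3 of the 26 were 56 of 3957 (1.42%, 95% interval 1.07 to 1.83) in WT duodenum, 59 (1.5%, 1.14 to 1.93) in Btnl2-KO duodenum, 49 (1.36%, 1.01 to 1.8) and 59 (1.55%, 1.18 to 2) in the jejunum, and 66 (1.77%, 1.37 to 2.25) and 63 (1.35%, 1.04 to 1.72) in the ileum. All 6 intervals overlap. Just outside this cut, 3.94 to 4.89% of cells had at least 2 members, and farther inside it 0.444 to 0.698% had at least 10 and 0.21 to 0.322% at least 20, with a highest number of 24 to 26 members by library. By the rule that chose them these cells held 61.6 to 75.3% of the G2/M UMIs. The S-phase members, which did not choose them, had 13.2 to 24.4% of their UMIs there, where the cells held 3.39 to 5.11% of all UMIs. UMIs of at least 3 S-phase members were found in 57.1 to 78% of these cells and in 13.6 to 18.4% of cells with no G2/M member, and after each cell was thinned to 2000 UMIs, leaving out 30 to 150 shallower cells per library, in 26.8 to 47.5% and 1.33 to 2.35%. Top2a had a UMI in 18 to 34.7% of cells with Mki67 and in 6.5 to 8.96% of the rest, and after thinning in 4.76 to 30.4% and 2.39 to 3.23%.

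These cells were deep, with median UMIs of 11317 to 14776 against 4749 to 5318 in cells with no G2/M member, and 19 to 28 per library were in the top 1% of UMIs. No doublet caller was run, and the part of cell pairs was not tested. Most held T cell RNA: the T cell receptor subunit Cd3e was found in 87.9 to 95.2% and the epithelial keratin Krt8 in 4.76 to 13.6%. From 1 to 7 per library had no Cd3e or Cd3g UMI, and each of these held at least 3 epithelial genes. Leaving out cells with no Cd3e or Cd3g UMI gave shares of 1.29, 1.43, 1.31, 1.48, 1.59 and 1.33% in the order above. The antiproliferative gene Btg1 was found in 97.6% of cells of WT duodenum and of WT ileum, the G1 cyclin Ccnd2 in 75.6 and 62.9%, the inhibitor Cdkn1b in 34.4 and 34%, and Foxm1, a factor for G2/M genes, in 0.329 and 0.376%. As CPM of all UMIs, summed G2/M members were 123.2 to 196.1 and summed pan-epithelial genes 199.9 to 545.2, where bulk γδ IEL libraries held 172.6 to 1307 and 665.6 to 8290 CPM, values of different assays that are given side by side without a comparison.

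**Figure D5:**
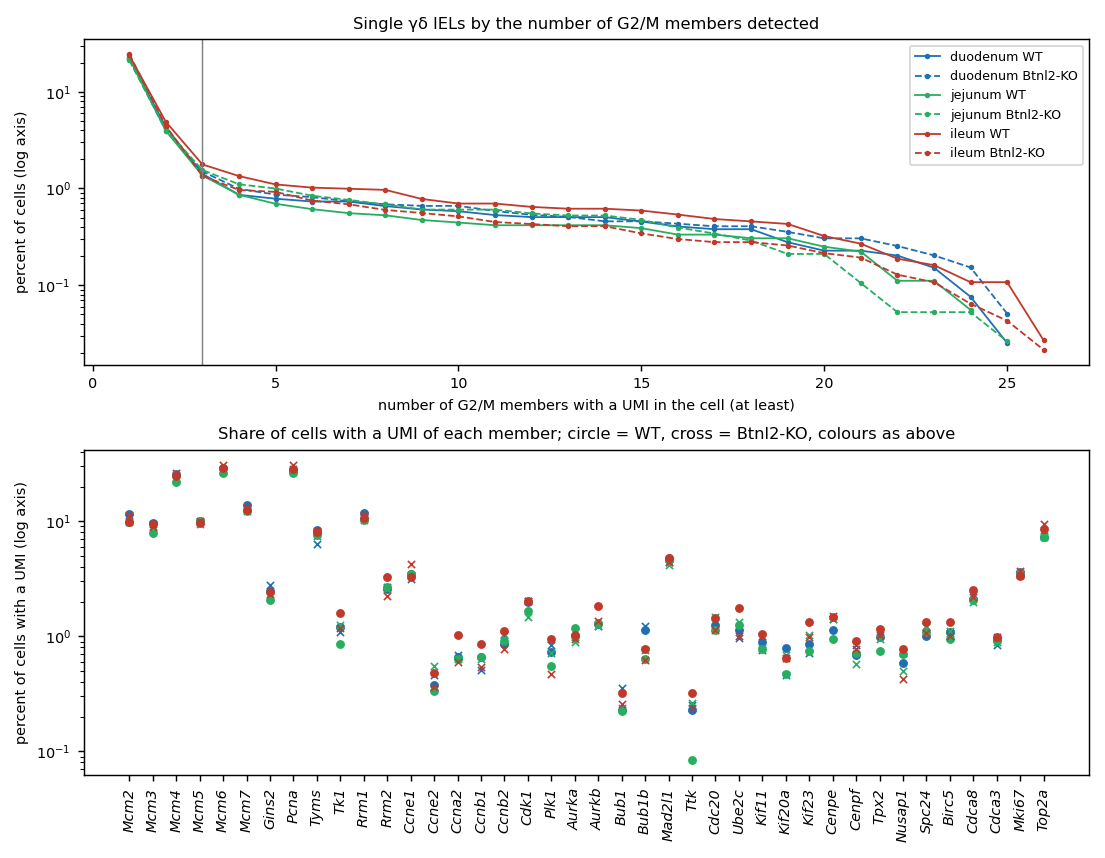
Upper panel, percent of cells (log axis) with UMIs of at least a given number of G2/M members, a line per library, with a vertical line at 3. Lower panel, percent of cells (log axis) with a UMI of each member in the 6 libraries. The lines fall steeply up to 3 members, where they lie at 1.35 to 1.77%, and then more slowly.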

How the data were processed

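Bulk RNA was sequenced in 65 libraries and single γδ IELs in 6. For the bulk tables the authors deposited expected counts, estimated per gene by RSEM, without normalization; 5, 14.9 and 17.2% of the γδ IEL, IEC and tissue values were not whole numbers. For the single cells the authors deposited UMI counts per gene and barcode from Cell Ranger, without normalization. The sources name GRCm38, and the paper and the labels differ in kits and in the age of γδ IEL mice. Groups were read from the labels, and 1 column that matched no sample was left out.

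The members and all other gene lists were chosen with earlier results of these data known. Expected counts were rounded, and genes that reached 10 counts in a number of libraries equal to the smaller group were tested between 2 groups at a time with edgeR 4.0.16 (R 4.3.3; TMM, quasi-likelihood F-test, Benjamini-Hochberg over all genes); all 40 members passed this filter in each comparison. A gene was called at an adjusted p under 0.05 and a change of over 1.5-fold. DESeq2 1.42.0, limma 3.58.1, RLE scaling, other filters, a pan-epithelial covariate and leaving out each library were alternatives. Named in each comparison were 8 fixed genes and up to 5 called members each way by size of change. Of 122 replicate pairs none agreed within sampling noise (lowest chi-square over degrees of freedom 5.28). The study describes its samples as biological replicates and the γδ IEL samples as pools of a pair of mice, 3 to 4 pools per genotype. By that description duodenum, jejunum and ileum of γδ IELs share animals, but the labels do not say which libraries, and the segment tests treat them as independent. The fits were tested on simulated data. Kept cells had 500 or more genes and no more than 10% of UMIs from mitochondria, and 18 to 31 barcodes were shared by any pair of libraries. PCR reads without molecular identifiers are not independent molecules, and intervals cover counting error only. Transcript lengths came from GENCODE vM21, promoters from RefSeq.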

Additional observations from a re-analysis of the deposited data

Results flagged for a closer look

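In each group of 4 to 10 libraries the distance of the highest and the lowest library from its neighbour was set against the whole range of the group. Of 80 such groups 2 held a library that stood apart by Dixon's 95% critical value, and chance gives about 1 in 20. The mean log2(CPM + 1) of the 26 G2/M members was 3.75 in WT ileal γδ IEL library 1105587 and 5.14 to 5.41 in the other 3; that library enters each comparison of WT ileal γδ IELs, which is why values without it are given beside them. Ccne1 was 9.87 CPM in small intestine library 964943 of Btnl2-KO mice and 4.38 to 6.04 in the other 6.

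The single-cell tables hold a row for LacZ, the reporter of the Btnl2-KO allele, which no comparison used. It had 16, 11 and 21 UMIs in Btnl2-KO cells of duodenum, jejunum and ileum, in that order, and 0 in each of the 3 WT libraries.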

How the results depend on the processing

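Calls in whole tissue changed little and calls in γδ IELs much. Colon against small intestine in WT tissue gave 26 to 36 called members when each library was left out (26.5 to 27.9% of all genes). It gave 31 by DESeq2 (27.9%) and 32 by limma-voom with quality weights (27.7%), but 1 in Btnl2-KO tissue (30.2%). Jejunum against duodenum in WT γδ IELs (6 called) gave 2 with all libraries of the table in a joint fit, for which the share of all genes was not taken. It gave 15 by limma-voom with quality weights (27.8% of all genes), 10 with the epithelial covariate (25.3%) and 0 in Btnl2-KO libraries. With each library left out it gave 1 to 13 (15.8 to 30.5%). Ileum against jejunum (9 called) gave 24 by limma-voom (33.3% of all genes), 5 with the covariate (19.1%) and 0 in Btnl2-KO libraries, and 2 to 18 with each library left out; Cdk1 changed sign there in Btnl2-KO libraries, to -0.19. Ileum against duodenum (0 called) gave 3 by limma-voom (4.34% of all genes) and 0 to 16 with each library left out (4.86% where 16 were called). Btnl2-KO against WT in ileal γδ IELs (0 called) gave 2 by DESeq2 (1.75% of all genes) and 14 by limma-voom (9.58%). With each library left out it gave 0 to 3 (0.48% where 3 were called). The causes were not tested. The other genotype and IEC comparisons stayed at 0 under every alternative run.

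The median log2 difference of the members between IECs and γδ IELs was 1.38 with TMM and 1.37 with RLE factors over all 65 bulk libraries (0.83 unscaled); that of IECs from small intestine was 1.44, 1.17 and, in Btnl2-KO libraries, 1.27 (0.71 unscaled). Relative to the median of all genes the first was 1.26 under either scaling. Without IEC library 1003466, left out after the data were seen, the medians were 0.86 and 0.77.

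The share of cells with at least 3 G2/M members fell to 0.564, 0.687, 0.342, 0.669, 0.785 and 0.628% after thinning to 2000 UMIs (duodenum WT and Btnl2-KO, then jejunum, then ileum), and to 0.791, 1.03, 0.701, 1.06, 1.03 and 0.909% without cells above the 99th percentile of UMIs. No paired analysis was possible because the labels do not say which libraries of the segments, or of colon and small intestine, came from the same mice.

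Groups of 2 to 4 libraries limit what the γδ IEL and IEC comparisons can show, and a p above the threshold does not show that levels were equal. Fractions differ in preparation and age as well as in cells. The single cells have 1 library per group, and at median depths of 4868 to 5462 UMIs a gene with no UMI in a cell is not shown to be silent there.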
